A study of Mus musculus with 107 samples.

Results

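The 10 melanocyte pigment genes Tyr, Tyrp1, Dct, Pmel, Mlana, Mitf, Sox10, Slc45a2, Oca2 and Gpr143 were followed across subcutaneous tumors of 12 mouse syngeneic models. They were chosen by name, and each matched 1 of the 50686 genes in the expression table. RNA of whole tumors was sequenced at the start of treatment, when tumors had grown to about 100 mm3 (Base, 35 tumors), and on day 8 either without treatment (NT, 36 tumors) or after 7 days of lenvatinib given by mouth at 10 mg/kg each day (LEN, 36 tumors). Lenvatinib (LEN) is an inhibitor of several receptor tyrosine kinases, among them the VEGF receptors of blood vessels. Each group held 3 tumors of a model, apart from 2 in Base MC38.

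B16-F10, a melanoma line from a black C57BL/6 mouse, was grown in C57BL/6NCrl mice and is the only melanoma of the set. The other 11 models were BNL 1ME A.7R.1, RAG, 4T1, CT26.WT, EMT6 and Renca in BALB/cAnNCrlCrlj mice, MC38 in C57BL/6NCrl, LL/2 in C57BL/6JCrl, MBT2 in C3H/HeNCrl, KLN205 in DBA/2NCrl and Hepa 1-6 in C57L/J mice. Cells were implanted into 7-week-old animals. Each model is 1 transplanted line, the untreated tumors received no vehicle as far as the sources used here state, and the labels number the tumors without naming the animals. p-values therefore measure the spread between these tumors. In bulk tumor RNA, fewer cells of a type and less RNA per cell cannot be told apart.

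Melanocytes make melanin inside the melanosome, a lysosome-related organelle, and hand it to the keratinocytes of skin and hair. Tyrosinase (Tyr) oxidizes tyrosine in the rate-limiting step, and its relatives dopachrome tautomerase (Dct) and Tyrp1 act further along the pathway to black eumelanin. Pmel forms the amyloid fibrils on which the pigment is laid down, and Mlana (MART-1) is a small melanosomal protein needed for Pmel processing and a known T cell antigen in melanoma. Slc45a2 and Oca2 are transport proteins that keep the melanosome lumen favorable for tyrosinase, and Gpr143 is a melanosomal receptor that limits organelle size. Sox10 is the neural crest transcription factor that switches on Mitf, and MITF in turn binds the promoters of most of the genes above.

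Promoter sequences were searched for the words that MITF is known to bind. RefSeq windows (build GRCm38.p6) were matched for 5 of the 10 genes, and the 250 bases before each transcription start were searched on both strands for the E-box letters CATGTG and CACGTG. A match describes the letters and was not tested as a binding site. The sequences of Tyr, Tyrp1 and Dct are given because the first pair share an 11-base element and Dct does not. Capitals mark the shared element AGTCATGTGCT, known as the M-box, in Tyr and Tyrp1, and CATGTG or its reverse complement CACATG in Dct. Tyrp1 is limited to 30 bases, since the annotation places an exon of another Tyrp1 transcript over this stretch.

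Tyr promoter, chr7:87493513-87493762, minus strand: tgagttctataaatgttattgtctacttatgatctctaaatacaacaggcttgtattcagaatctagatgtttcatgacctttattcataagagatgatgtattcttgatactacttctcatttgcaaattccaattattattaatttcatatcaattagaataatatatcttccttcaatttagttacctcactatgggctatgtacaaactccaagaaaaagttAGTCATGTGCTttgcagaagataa
Tyrp1 promoter, chr4:80834154-80834183, plus strand: gtggggagggAGTCATGTGCTgcctagtag
Dct promoter, chr14:118052247-118052496, minus strand: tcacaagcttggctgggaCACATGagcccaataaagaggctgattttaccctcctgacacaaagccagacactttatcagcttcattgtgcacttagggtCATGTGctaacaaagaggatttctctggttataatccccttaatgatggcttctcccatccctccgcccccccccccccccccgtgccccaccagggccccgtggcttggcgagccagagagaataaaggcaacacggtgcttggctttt

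The M-box lay 24 to 14 bases before the Tyr start and 49 to 39 bases before the Tyrp1 start. It was defined as the longest run shared by these windows around CATGTG, which it contains, and 7 of the 32851 windows in the table (0.0213%) held it. In Dct, CATGTG lay 150 to 145 and CACATG 232 to 227 bases before the start, and Oca2 held CACATG 186 to 181 bases before it. CATGTG is a common word, present on one strand or the other in 12.3% of all windows, and CACGTG, in none of these genes' windows, was in 6.02% of them. The Mitf table holds 3 starts and none of their windows had either word. The third start, which opens the short isoform typical of melanocytes, had instead TGACGTCA, the cAMP response element, 153 to 146 bases upstream. It is shown with that element in capitals because melanocortin signaling is known to reach Mitf through it, and 1.55% of all windows held these letters.

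Mitf promoter at the third start, chr6:97991533-97991782, plus strand: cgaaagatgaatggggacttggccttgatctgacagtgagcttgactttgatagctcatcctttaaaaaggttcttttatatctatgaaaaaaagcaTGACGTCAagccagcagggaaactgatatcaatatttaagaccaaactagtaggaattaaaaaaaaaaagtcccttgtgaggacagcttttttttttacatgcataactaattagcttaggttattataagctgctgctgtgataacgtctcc

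The table counts each gene as a whole, so it does not tell Mitf isoforms apart. In the GENCODE M21 annotation of GRCm38, all 10 genes are protein-coding. Tyr lies at chr7:87424771-87493512 on the minus strand, Tyrp1 at chr4:80834123-80851719 on the plus strand, Dct at chr14:118012790-118052244 on the minus strand, Mlana at chr19:29697824-29708634 on the plus strand and Mitf at chr6:97807052-98021349 on the plus strand. Sox10 (chr15:79154908-79165240, minus strand) and Slc45a2 (chr15:11000721-11029233, plus strand) share a chromosome, as Oca2 (chr7:56239760-56536518, plus strand) does with Tyr, and Gpr143 is X-linked (chrX:152781921-152808646, plus strand). Pmel (chr10:128704195-128720238, plus strand) has exons that overlap those of Cdk2 and Dgka on the opposite strand, and no source used here states whether reads were assigned by strand.

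All 10 genes marked B16-F10. Each was higher in every one of the 9 B16-F10 tumors than in any of the 98 tumors of the other models, and 4.09% of the genes tested showed this separation. Apart from Mitf, the genes entered that count through the B16-F10 tumors alone, so their separation is a description. Together they made up 0.893% to 1.05% of the summed TPM, a transcript level scaled for gene length and library size, in B16-F10 and 0.0002% to 0.0022% elsewhere. The most similar tumor of every tumor was one of the same model, a check of the model labels and not of Base, NT and LEN.

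**Figure D1:**
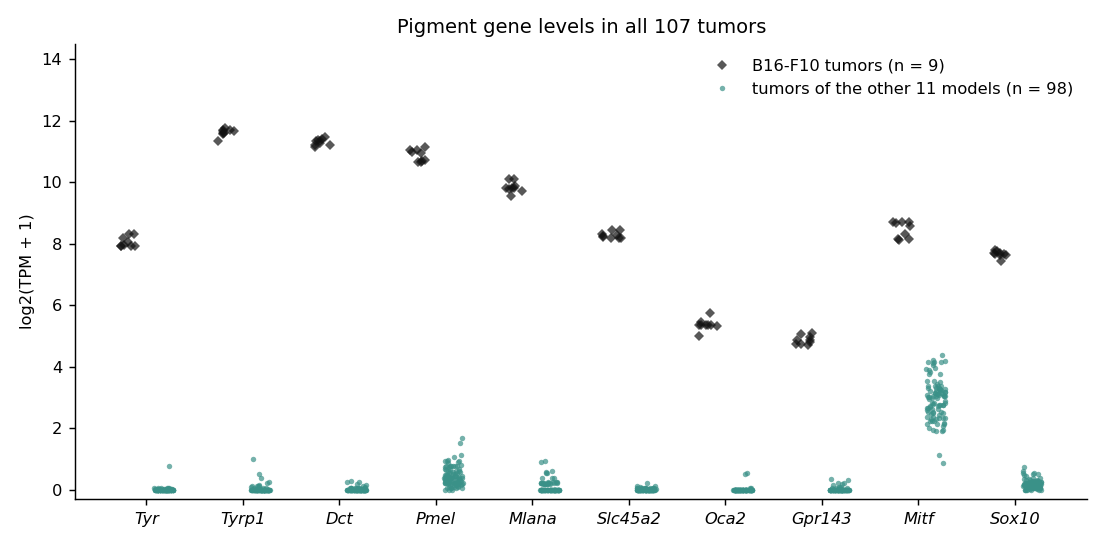
Level of each pigment gene in every tumor, as log2(TPM + 1), with 9 B16-F10 tumors as diamonds and the 98 other tumors as dots. The 2 sets do not overlap for any gene, and Mitf is the only gene with a clear level (median 7.01 TPM) outside B16-F10.

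Among the enzymes, Tyrp1 was the most abundant of the 10 genes in B16-F10, with a median of 3237 TPM and a range of 2577 to 3472 TPM. Dct ranged from 2272 to 2860 TPM around a median of 2606 TPM. Tyr, the rate-limiting enzyme, was far less abundant than either, at 240.6 to 319 TPM with a median of 250.36 TPM. The ratio of Tyrp1 to Tyr lay between 8.19 and 13.7 over the 9 tumors.

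The structural proteins of the melanosome lay below Tyrp1 and above Tyr. Pmel ranged from 1602 to 2253 TPM and Mlana from 744 to 1113 TPM. The membrane transporters were lower, Slc45a2 at 290.11 to 351 TPM and Oca2 at 31.2 to 53.2 TPM, and the receptor Gpr143 was the lowest of all at 25.2 to 33.0 TPM. The transcription factors ranged from 277 to 422 TPM for Mitf and 172 to 219.69 TPM for Sox10.

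Before treatment, the order of the mean levels was Tyrp1, Dct, Pmel, Mlana, Mitf, Slc45a2, Tyr, Sox10, Oca2 and Gpr143, and no neighbors in this order overlapped among the 3 Base tumors. On day 8 without treatment, Tyrp1 overlapped Dct, Mitf overlapped Slc45a2 and Slc45a2 overlapped Tyr. In LEN tumors the order was the same except that Slc45a2 stood above Mitf, and neighbors were again separate. Over the 9 tumors, differences between groups included, the coefficient of variation ran from 6.57% for Sox10 to 17.96% for Mitf, whose LEN tumors were the lowest. Within a group the widest spread relative to the mean was that of Oca2 in NT, at 42.4 ± 11.01 TPM (SD, n = 3).

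Base B16-F10 was then set against the mean of the other 11 models at Base (limma on log2(TPM + 1), Benjamini-Hochberg over 17542 genes). All 10 genes were called higher, in a contrast that called 68.6% of all genes tested, and 36.7% as higher in B16-F10. Mitf alone would have passed the filter on low levels without the B16-F10 tumors, so for the other 9 genes a difference was fixed once they entered, and the values are a description. The difference in log2(TPM + 1) was 11.60 for Tyrp1, 11.17 for Dct, 10.24 for Pmel and 9.88 for Mlana. It was 8.25 for Slc45a2, 7.91 for Tyr and 7.47 for Sox10. Mitf (5.71, SE 0.17, adjusted p = 1.49e-20), Oca2 (5.32) and Gpr143 (4.99) differed least. Mitf had a level in the other tumors too, while Oca2 and Gpr143 were the lowest of the genes in B16-F10.

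Outside B16-F10, most of these genes were listed at 0. Oca2 was at 0 in 94 of 98 tumors, Gpr143 in 86, Tyrp1 in 84, Tyr in 83, Dct in 80, Slc45a2 in 74 and Mlana in 69. The lowest B16-F10 tumor exceeded the highest other tumor 10327-fold for Dct, 2526-fold for Tyrp1, 1934-fold for Slc45a2 and 349-fold for Tyr. These folds rest on traces below 1.1 TPM, and the number of reads behind them is not known from TPM.

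The traces were not spread evenly. A single tumor, Base replicate 1 of Hepa 1-6, a hepatocellular carcinoma line, held the highest level outside B16-F10 of Tyr (0.69 TPM), Tyrp1 (1.02 TPM) and Mlana (0.89 TPM). Its Tyrp1 level was 1.48 times its Tyr level, a ratio of traces. The summed level of 6 hair follicle markers was 45.5 TPM in this tumor and 10.5 and 16.3 TPM in the other Base tumors of Hepa 1-6. That sum was higher in Base EMT6 (113 to 140 TPM) and Base 4T1 (86.4 to 101 TPM), where Tyrp1 was at 0 and Tyr at most 0.01 TPM. Mlana reached 0.51 TPM in Base replicate 3 of EMT6. The part of hair follicles in the traces was not tested. The highest Gpr143 and Slc45a2 levels were also in Hepa 1-6 tumors, at 0.26 and 0.15 TPM. Dct was highest in NT replicate 4 of KLN205 (0.22 TPM), a squamous lung carcinoma line, and Oca2 in Base replicate 3 of CT26.WT (0.47 TPM), a colon carcinoma line. In KLN205 every NT and LEN tumor held traces of Tyrp1 (0.07 to 0.29 TPM) and Dct (0.03 to 0.22 TPM).

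Pmel and Sox10 were low but seldom at 0. Pmel was listed at 0 in 3 of the 98 tumors, with a median of 0.305 TPM, and reached 1 TPM in 4 of them. The highest was LEN replicate 3 of EMT6, a mammary carcinoma line, at 2.22 TPM, while the other tumors of that group were at 0.31 and 0.33 TPM. Sox10, which glial cells of peripheral nerve also express, was at 0 in 7 tumors and nowhere above the 0.68 TPM of Base replicate 3 in MC38.

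Mitf was the exception, with RNA in all 98 other tumors and at least 1 TPM in 97 of them. Besides melanocytes, Mitf is known to act in mast cells, osteoclasts and other cells of the macrophage lineage. Its lowest level outside B16-F10 was 0.81 TPM, the median 7.01 TPM and the highest 19.77 TPM, in Base replicate 3 of Hepa 1-6. That is 14.0-fold below the lowest B16-F10 tumor, compared with 66.3-fold for Oca2, the gene with the next smallest gap.

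**Figure D2:**
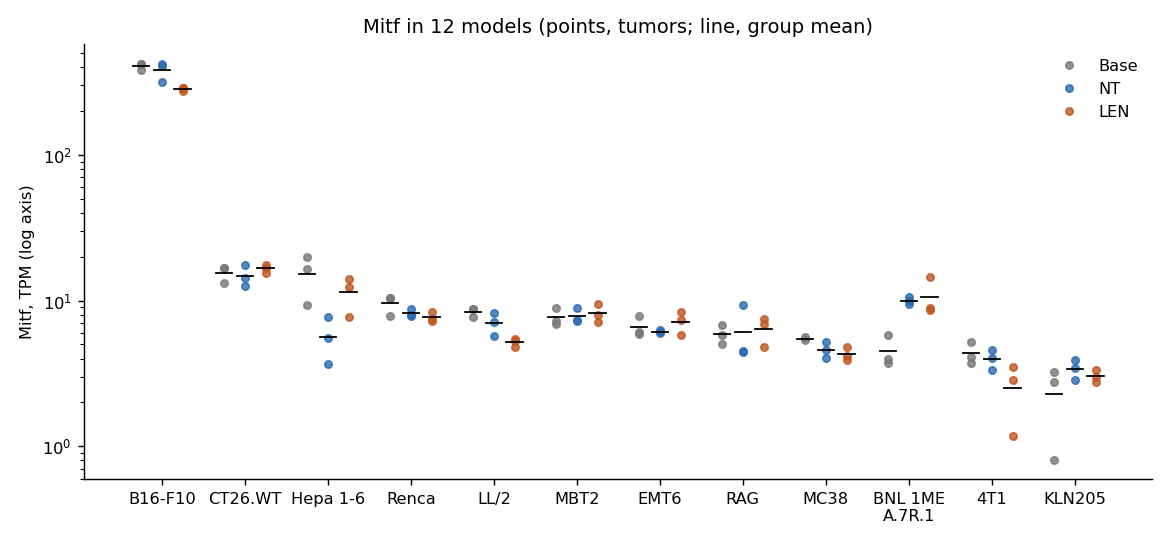
Mitf level of every tumor in TPM on a log axis, by model and group, with lines at group means. Base, NT and LEN of B16-F10 (277 to 422 TPM) stand above all other models, whose tumors lie between 0.81 and 19.77 TPM.

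At Base, Mitf averaged 407 ± 22.1 TPM (SD, n = 3) in B16-F10. The next models were CT26.WT (15.6 TPM), Hepa 1-6 (15.2 TPM) and Renca (9.57 TPM), and the mean then fell through LL/2 (8.4 TPM), MBT2 (7.68 TPM), EMT6 (6.58 TPM), RAG (5.89 TPM), MC38 (5.46 TPM), BNL 1ME A.7R.1 (4.51 TPM) and 4T1 (4.35 TPM) to KLN205 (2.28 TPM). B16-F10 did not overlap CT26.WT and 4T1 did not overlap KLN205, whereas all other neighbors in this order overlapped. The summed level of 8 macrophage markers at Base did not follow this order throughout. It was 689 to 923 TPM in CT26.WT, 970.48 to 1400.33 TPM in Hepa 1-6 and 1066 to 1202 TPM in Renca, but 1107 to 1379 TPM in RAG, the eighth model by Mitf, and 297 to 511 TPM in KLN205. The sum of 6 mast cell markers was highest in CT26.WT (97.8 to 135 TPM) and MBT2 (62.8 to 117 TPM), which overlapped, and lowest in Renca (0.4 to 1.67 TPM). B16-F10 had 162 to 211 TPM of the macrophage and 2.59 to 5.21 TPM of the mast cell markers. The part of these cells in the Mitf levels was not tested.

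Between Base and day 8 without treatment, Mitf rose in 1 of the other 11 models with an adjusted p under 0.05, where 8.65% of the tests over all genes in these 11 contrasts were called. By model that share ran from 0.0322% in MBT2 to 28.9% in KLN205, with 0.324% in Hepa 1-6. In BNL 1ME A.7R.1, a hepatoma line, Base tumors had 3.74, 3.99 and 5.81 TPM and NT tumors 9.42, 9.89 and 10.56 TPM. The groups did not overlap, and the difference was 1.01 on the log2(TPM + 1) scale (SE 0.15, adjusted p = 0.00483 by limma), and this model's contrast called 28.3% of all genes. The macrophage marker sum was 332 to 538 TPM in the Base tumors and 1044 to 1077 TPM in the NT tumors of this model, and its part in the result was not tested. In Hepa 1-6, Mitf went from 9.35, 16.48 and 19.77 TPM at Base to 3.66, 5.53 and 7.73 TPM in NT, without overlap, but the adjusted p was 0.0781. The macrophage sum there was 970.48 to 1400.33 TPM at Base and 435 to 786 TPM in NT. Over the 11 models, the macrophage sums of Base and NT did not overlap in 8, being higher in NT in 4 and lower in 4, and the mean of Mitf differed in the same direction in 7 of the 8. The Mitf difference was small in some of these, as in MBT2 (7.68 and 7.83 TPM), and had the opposite direction in 4T1 (4.35 and 3.98 TPM). Mitf was called in BNL 1ME A.7R.1 alone, and the part of macrophages in the Mitf differences over the 11 models was not tested.

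LEN treatment changed Mitf in 0 of the other 11 models at an adjusted p under 0.05 by limma, with an unadjusted p under 0.05 in Hepa 1-6 and LL/2. Over all genes, 4.3% of the tests in these 11 contrasts were called. Of the 7504 calls, 5365 were in BNL 1ME A.7R.1 and 1909 in Renca, against 11 in Hepa 1-6 and 23 in LL/2. The pooled share therefore does not describe the last 2 models, where few genes of any kind passed. The difference in log2(TPM + 1) was 0.91 in Hepa 1-6 (adjusted p = 0.134) and -0.36 in LL/2 (adjusted p = 0.255). It was -0.57 in 4T1 (adjusted p = 0.736), where 1 library stood apart. LEN replicate 4 of 4T1 had 1.17 TPM of Mitf against 2.84 and 3.49 TPM in the other LEN tumors and 3.35 to 4.59 TPM in NT, and 27.5% of its TPM lay in protein-coding genes, against 45.3% and 43.8% in the other LEN tumors of 4T1. The macrophage sum went from 476 to 627 TPM in NT to 247 to 251 TPM in LEN in LL/2, without overlap, and from 435 to 786 TPM to 625 to 1018 TPM in Hepa 1-6, with overlap. It was lower in LEN without overlap in 6 of the 11 models, and the mean of Mitf was lower in 5 of these 6 and higher in CT26.WT (14.8 and 16.6 TPM). Its part in the Mitf values was not tested.

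The design then asks whether LEN moved the pigment genes in the tumors that express them. In B16-F10, 1 of the 10 genes, Tyr, fell between NT and LEN with an adjusted p under 0.05, and 0 rose. That contrast called 11% of the 15839 genes tested, 2.42% as lower and 8.57% as higher. The median difference over the 10 genes was -0.08 on the log2 scale, against 0.02 over all genes.

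**Figure D3:**
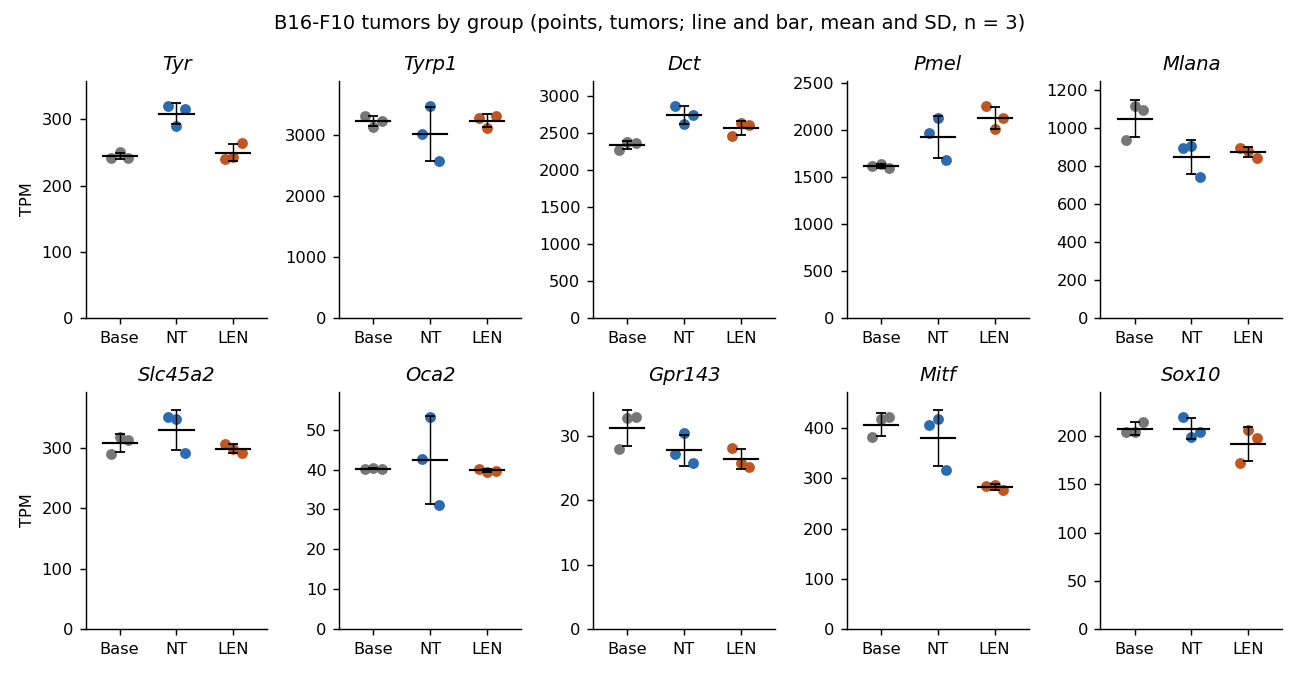
TPM of each pigment gene in the 9 B16-F10 tumors, with points for tumors and line and bar for mean and SD (n = 3 per group). LEN tumors lie below all NT tumors for Tyr and Mitf, and the groups overlap for the other 8 genes.

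Tyr stood at 319, 289.97 and 315 TPM in the NT tumors and at 240.6, 243 and 265 TPM in the LEN tumors. All 3 LEN tumors were below all 3 NT tumors. The mean went from 308 ± 15.8 to 249 ± 13.1 TPM (SD, n = 3 each), a difference of -0.30 in log2(TPM + 1) with SE 0.066 and an adjusted p of 0.0329 (limma). The call was lost when any one of 5 of the 6 tumors was left out (adjusted p from 0.0609 to 0.108) and stayed without NT replicate 4 (0.0329). It was also lost with no filter on low genes (adjusted p = 0.0504), without the mean-variance trend (0.0801) and in the two-group test with unequal variances that the study used (0.142). Over all 16 alternatives the adjusted p ranged from 0.000124 to 0.239.

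Mitf had 406, 418 and 317 TPM in NT and 286, 286 and 277 TPM in LEN. Here too the groups did not overlap, and NT replicate 5 was well below the other NT tumors. The difference of -0.42 (SE 0.11) was larger than that of Tyr, with an adjusted p of 0.0556 by limma. It passed under 5 of 16 alternatives, among them without NT replicate 5 (-0.54, adjusted p = 0.0110) and after rescaling TPM over protein-coding genes (-0.49, adjusted p = 0.00471), and over all 16 the adjusted p ranged from 0.00471 to 0.313. LEN groups that do not overlap NT groups were common in this contrast, at 11.3% of all genes on the lower side and 31.6% in either direction, against 2 of 10 here.

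Of the other enzymes, Dct was at 2860.03, 2621 and 2745 TPM in NT and 2462, 2641 and 2606 TPM in LEN (difference -0.09, adjusted p = 0.387). Tyrp1 spread over 3018, 3472 and 2577 TPM in NT and stayed within 3118 to 3317 TPM in LEN (0.11, adjusted p = 0.581). The NT range of Tyrp1 thus enclosed every LEN tumor.

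Pmel, the fibril protein, had 1966, 2128 and 1685 TPM in NT and 2253, 2018 and 2129 TPM in LEN (0.15, adjusted p = 0.377). Mlana had 897, 904 and 744 TPM in NT and 896, 880.49 and 842 TPM in LEN (0.05, adjusted p = 0.792). Both pairs of groups overlapped. For the transporters and the receptor the differences were -0.14 for Slc45a2, -0.06 for Oca2 and -0.07 for Gpr143, with adjusted p-values of 0.358, 0.884 and 0.667. Sox10, upstream of Mitf, had 219.69, 199.61 and 204 TPM in NT and 172, 206 and 198 TPM in LEN (-0.12, adjusted p = 0.448).

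Replicate 5 was the lowest NT tumor for 7 of the 10 genes (Tyrp1, Pmel, Mlana, Mitf, Slc45a2, Oca2 and Gpr143). It also had the lowest share of TPM in protein-coding genes of the 9 tumors, 54.6%, against 58.3% and 58.4% in the other NT tumors and 59.1% to 60.6% in LEN. Its part in the spread of the NT group was not tested. As shares of protein-coding TPM, the 10 genes together made up 1.58% to 1.67% at Base, 1.64% to 1.79% in NT and 1.61% to 1.69% in LEN, so the groups overlapped in total pigment gene RNA.

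**Figure D4:**
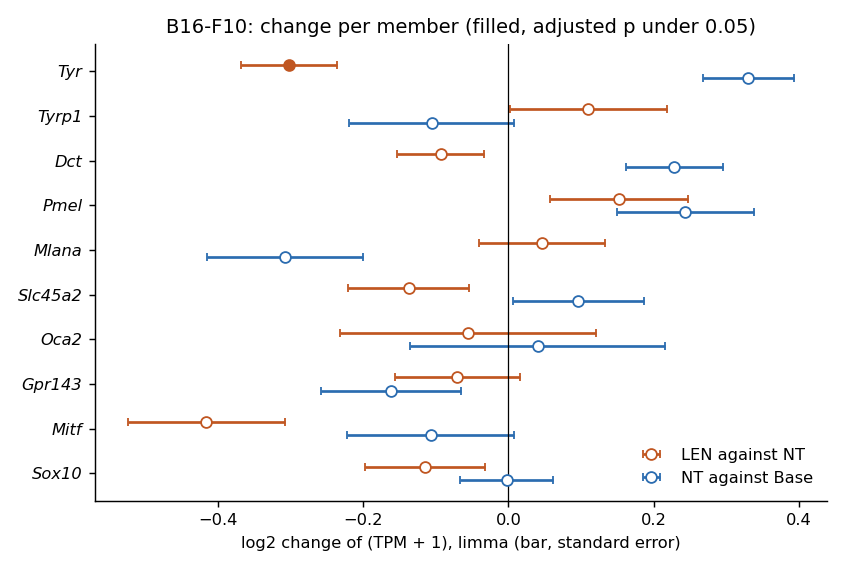
Change of each pigment gene in B16-F10 on the log2(TPM + 1) scale, for LEN against NT and for NT against Base, with standard errors from limma and filled points for an adjusted p under 0.05. Tyr in LEN against NT (-0.30) is the only filled point, and its change from Base to NT (0.33) has the opposite sign.

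In untreated growth from Base to NT, 0 of the 10 genes passed an adjusted p of 0.05 by limma, while 0.885% of 15595 genes did. At an unadjusted p under 0.05 there were 4, namely Tyr, Dct, Pmel and Mlana, as were 2271 of the 15595 genes tested, and the two-group test called 0 as well. Tyr had 242, 250.36 and 241 TPM at Base, all below the NT tumors, a difference of 0.33 (SE 0.063, adjusted p = 0.0817). Dct was 2272, 2375 and 2369.53 TPM at Base, again below every NT tumor (0.23, adjusted p = 0.200). These differences share the NT tumors with the LEN comparison, so a high NT value of Tyr enters both. LEN tumors (240.6 to 265 TPM) overlapped the Base tumors for Tyr.

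Pmel was 1619, 1637 and 1602 TPM at Base, below the NT tumors (0.24, adjusted p = 0.310), and Mlana was 939, 1113 and 1096 TPM, above them (-0.31, adjusted p = 0.260). Of the 10 genes 3 were thus separated upward and 1 downward, against 8.82% and 12.1% of all genes. The remaining changes were -0.16 for Gpr143 and between -0.11 and 0.10 for Tyrp1, Mitf, Slc45a2, Oca2 and Sox10. Mitf had 382, 418 and 422 TPM at Base, so that LEN tumors lay below both untreated groups for this gene.

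The LEN effect in B16-F10 was also set against the mean effect in the other 11 models, in a fit over all 72 day 8 tumors that called 8.39% of 17351 genes, and 0.847% as lower. Mitf is the one gene of the 10 for which this is informative, since all models express it. The difference was -0.44 (SE 0.22, adjusted p = 0.285 by limma). The other 9 genes were at or near 0 elsewhere and entered the fit through B16-F10 alone. Tyr, the 1 of the 10 that this fit called, had no level in the other models for LEN to change, so its value there (-0.30) restates the difference within B16-F10.

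Genes around the pigment set were taken from lists of related function. Of 38 melanosome biogenesis and transport genes tested in B16-F10, 5 rose with LEN, 2 fell and 31 did not pass, with a median difference of 0.01. Over all genes of this contrast, 8.57% were called higher and 2.42% lower. The leading genes were Rab7b (1.08, a Rab GTPase of endosomes), Mlph (0.81, melanophilin, which ties melanosomes to the actin motor), Gpnmb (0.48, a relative of Pmel) and Tpcn2 (0.47, an ion channel of melanosomes). Mlph was the clearest, at 118, 111 and 116 TPM in NT and 188, 219 and 200.27 TPM in LEN (adjusted p = 0.00246), and its groups did not overlap. Gpnmb, also known as a macrophage gene, went from 1541, 1545 and 1549 TPM to 2171, 2133 and 2163 TPM (adjusted p = 0.00310). Rab27a, the partner of melanophilin on the melanosome, fell by 0.27 with an adjusted p of 0.0498, and it and the adaptor subunit Ap1s2, which fell by 0.41, were the 2 lower genes. The remaining higher gene was the tetraspanin Cd63 (0.27).

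Of 12 receptor and signaling genes tested, Mc1r rose and 11 did not pass, a share like that over all genes (8.57% higher), with a median of -0.09. Mc1r is the melanocortin receptor that drives eumelanin through cAMP, and it had 64.8, 56.1 and 61.2 TPM in NT and 77.2, 85.6 and 79.4 TPM in LEN (0.41, adjusted p = 0.0209). Of 12 neural crest and melanocyte transcription factors tested, Pax3 fell and 11 did not pass (2.42% of all genes were lower), with a median of -0.04. Pax3 works with Sox10 on Mitf, and it stood at 105, 109 and 103 TPM in NT and 81.5, 86.1 and 80.8 TPM in LEN (-0.35, adjusted p = 0.0149). Neither gene's groups overlapped. The other members of the Mitf family and their partners gave 0 calls among 6 genes tested (median 0.07).

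Melanoma cells with low MITF are known to express an invasive set that includes Axl and Tnc. Of 11 such genes tested, 2 rose with LEN and 9 did not pass, with a median of 0.59. Over all genes 8.57% were called higher and the median was 0.02, and the list as a whole was not tested. Tnc (tenascin C) went from 10.6, 9.51 and 8.33 to 30.8, 30.9 and 43.3 TPM (1.77, adjusted p = 0.00246) and Loxl2, a collagen-crosslinking enzyme, from 15.7, 18.4 and 15.8 to 32.1, 36.7 and 45.4 TPM (1.14, adjusted p = 0.00469). Both are matrix genes that fibroblasts also express. All 6 fibroblast markers tested rose in the same tumors, and their summed level was 116 to 146 TPM in NT and 448 to 597 TPM in LEN, with none at 0 throughout either group. Lum averaged 0.66 TPM in NT and passed the filter through the LEN tumors. Whether fibroblasts account for the 2 genes was not tested.

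**Figure D5:**
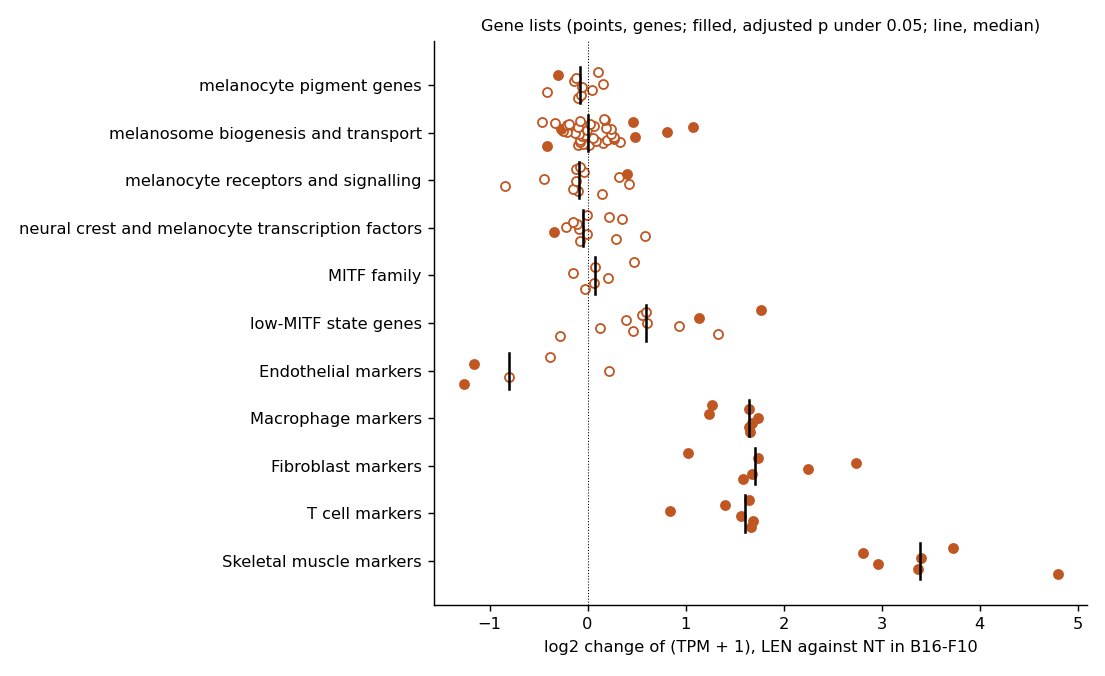
Difference between LEN and NT in B16-F10 on the log2(TPM + 1) scale for each gene of the pigment, pathway and marker lists, with filled points for an adjusted p under 0.05 and a line at each median. Pigment and melanosome genes center near 0 (medians -0.08 and 0.01), whereas the fibroblast, macrophage, T cell and skeletal muscle markers lie to the right.

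Other cells moved with the LEN comparison as well. All 7 macrophage, 6 T cell, 6 skeletal muscle and 3 mast cell markers tested were higher in LEN tumors, and 2 of 5 endothelial markers were lower (Cdh5, -1.26, and Kdr, -1.16), with the other 3 not passing. In NT, 0 of 6 T cell, 0 of 6 mast cell and 3 of 6 skeletal muscle markers averaged at least 1 TPM. The markers below that level passed the filter through the LEN tumors, so their rise is a description. The endothelial sum was 101.39 to 106.5 TPM in NT and 101.28 to 107.97 TPM in LEN. The other summed levels were 73.1 to 109 TPM in NT and 246 to 357 TPM in LEN for macrophages, 1.36 to 4.39 and 15.9 to 19.9 TPM for T cells, and 2.45 to 23.99 and 142 to 212 TPM for skeletal muscle. The Base ranges were 162 to 211 TPM for macrophages, 4.13 to 7.83 TPM for T cells and 106 to 130.2 TPM for muscle, and no marker of these 3 lists was at 0 throughout a group. Mast cell markers summed to 0.35 to 0.72 TPM in NT, with 2 of 6 at 0, and to 5.61 to 11.1 TPM in LEN. Of 5 keratinocyte markers tested 0 passed, with sums of 0 to 0.03 TPM in NT and 0.12 to 71.4 TPM in LEN. The part of these cells in the values of the pigment genes, and of the melanosome and other lists around them, was not tested. The melanosome, receptor, transcription factor and Mitf family lists gave 0 calls from Base to NT, and of the low MITF list Tnc alone passed, with a difference of -0.74. In the same contrast 5 of 6 fibroblast, 3 of 8 macrophage and 3 of 6 skeletal muscle markers were lower, and the fibroblast sum was 266 to 402 TPM at Base. Of these lower markers, Lum, Cd163, Myh4 and Ckm averaged under 1 TPM in NT and passed the filter through the Base tumors. The part of fibroblasts, macrophages and muscle in the Tnc value was not tested.

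Finally, the table was searched for genes whose group means followed the mean of the 10 genes most closely. Over the 36 groups, the 10 most alike genes had a Pearson r of 0.9988 to 0.9993. Of the 36 points, the 3 B16-F10 groups share 1 line and stand apart from the rest, so this r describes that separation. Those with the highest levels were Tspan10, a tetraspanin (200.57 to 232 TPM over the B16-F10 groups, at most 0.1833 TPM in any other group), and Ankfn1 (99.6 to 123 TPM, at most 0.2367 TPM). The others were RP24-264F17.5, Gm829, Gm26519, Gm12890, Brs3, Gjc3, Gm44719 and Gm44722, between 1.67 and 41.4 TPM in B16-F10.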

How the data were processed

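Per the labels and the study's methods, RNA was rRNA-depleted and sequenced, reads were trimmed (Trimmomatic 0.36), aligned to mm10 (GRCm38, Ensembl 88) with STAR 2.5.2b, and the authors estimated TPM per gene with RSEM 1.2.31. The deposited TPM sum to the same total in every tumor and carry no counts, so depth, and with it the counting error of low values, is unknown. Low genes are therefore the least precise. Levels were analysed as log2(TPM + 1), which understates changes of low genes. Genes with a mean of at least 1 TPM over the fitted tumors were tested with limma 3.58.1 (R 4.3.3, trend on), two-sided, with Benjamini-Hochberg adjustment over all of them. B16-F10 comparisons used 6 tumors, the Base comparison between models all 35 Base tumors and the comparison of LEN effects all 72 day 8 tumors. This moderated test replaced the study's own two-group test, which was run as an alternative along with other pseudocounts, filters, scalings and left-out tumors.

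The pigment genes and the lists around them were chosen with earlier results of these data known. From each list at most 4 genes passing the test were named by size of change, and further called genes (Cd63, Ap1s2 and Rab27a) were named after their values were seen. In simulated data with 200 changed genes, limma recovered 84% of changes of 1 and 97% of changes of 2 on the log2 scale for LEN against NT in B16-F10 (15839 genes). Smaller changes were not simulated. The pigment genes differed by -0.42 to 0.15 in that contrast, so these shares do not tell how often such differences would be found. Promoter sequences came from RefSeq (GRCm38.p6), and Python 3.11.15 was used for tables.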

Additional observations from a re-analysis of the deposited data

Results flagged for a closer look

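For Tyr, the LEN effect in B16-F10 minus its mean effect in the other 11 models came to -0.302123 on the log2(TPM + 1) scale, and the fit over all day 8 tumors called it. Tyr was listed at 0 in 83 of the 98 tumors of the other models and entered the fit through B16-F10 alone. The value therefore does not show that models expressing Tyr respond differently to LEN, and with a pseudocount of 0.1 the call was lost (adjusted p = 0.5996, limma).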

How the results depend on the processing

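Depth is unknown from TPM, which limits what can be said of levels below 1 TPM. All 10 genes stayed above the other models, and called at Base, under every alternative run, which for the 9 other than Mitf follows from how they entered the test. For LEN against NT in B16-F10, the count of all genes called (1742) was 2854 after rescaling over protein-coding genes (1627 higher and 1227 lower, against 1358 and 384), 13 in the two-group test, 672 with the replicate number as a block, and 681 to 1581 when 1 tumor was left out. Pigment genes called (1, Tyr) numbered 0 with no filter, no trend, the two-group test or the block, 2 (Tyr and Mitf) with upper-quartile rescaling, rescaling without abundant non-coding and mitochondrial genes or a minimum of 5 TPM, 3 (with Slc45a2) over protein-coding genes, and 0 to 1 with 1 tumor left out; without NT replicate 5 the 1 was Mitf. With the block the adjusted p of Tyr was 0.239. The numbers 2 and 5 shared by NT and LEN did not pair the tumors, whose deviations correlated at -0.0317 and -0.0647, and NT and Base shared 1 number, so no block was fitted there. For NT against Base, the 138 calls became 31 with no filter, 333 over protein-coding genes, 1 in the two-group test, 370 with the spread shared over models, and 29 to 184 with 1 tumor left out. Pigment genes called there were 1 (Tyr) over protein-coding genes and 2 (Tyr and Dct) with shared spread, and 0 with any tumor left out. For the difference of LEN effects they were 0 with a pseudocount of 0.1 and 1 to 3 with 1 tumor left out (3 without NT replicate 5, Tyr, Oca2 and Slc45a2).

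Reversals of sign touched small differences without a call in the main test, and their cause was not tested. For LEN against NT they were Gpr143 (0.0098) and Oca2 (0.127) with the replicate block, and Mlana without abundant genes (-0.0048) and over protein-coding genes (-0.0274). With 1 tumor left out, Mlana ranged from -0.046 to 0.0948 and Oca2 from -0.255 to 0.121. For NT against Base, Sox10 reversed without abundant genes (0.0016) and over protein-coding genes (0.0367), and with 1 tumor left out the ranges were -0.181 to 0.0179 for Mitf, -0.137 to 0.239 for Oca2, -0.0431 to 0.0257 for Sox10 and -0.211 to 0.0037 for Tyrp1. For the difference of LEN effects, Gpr143 (0.0497) and Mlana (-0.168) reversed with a pseudocount of 0.1 and Mlana without abundant genes (-0.0508), and with 1 tumor left out the ranges were -0.102 to 0.0138 for Gpr143, -0.0796 to 0.0612 for Mlana, -0.253 to 0.123 for Oca2 and -0.0126 to 0.202 for Tyrp1. NT replicates 4 and 5 set most of these limits. Mitf in BNL 1ME A.7R.1 (LEN against NT) was -0.134 with upper-quartile rescaling.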

Other observations

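Trpm1, a cation channel gene that MITF is known to activate and that belongs to the melanosome list, was singled out after its values were seen. It had 276, 333 and 233 TPM in B16-F10 NT tumors and 211, 194 and 196 TPM in LEN tumors, with 289.75, 299 and 332 TPM at Base. LEN tumors did not overlap the untreated ones, and the difference from NT was -0.47 on the log2(TPM + 1) scale (SE 0.13, adjusted p = 0.0618 by limma). Against NT, 11.3% of all genes tested were separated in this direction. Trpm1 had the largest downward difference of that list, in which 5 genes were called higher and 2 lower. Slc24a5, an ion exchanger of melanosomes named in the same way, had a mean of 257 TPM in NT and 225 TPM in LEN (-0.19, adjusted p = 0.155).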
